A study of Mus musculus and Homo sapiens with 22 samples.

Results

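PROX1 occupancy was described across 1 locus, the stretch of mouse chromosome 1 that holds the Ugt1a gene complex, Mroh2a, Hjurp and Trpm8, and the stretch of human chromosome 2 around UGT1A1, HJURP and TRPM8. Members were all peaks of the 3 deposited PROX1 CUT&RUN lists whose summit lay on chr1:87900000-88450000 (mm10, 550 kb) or, on hg38, between 100 kb upstream of UGT1A1 and 100 kb downstream of TRPM8 (chr2:233660270-234119522, 459 kb). They were 86 of 105059 peaks, namely 66 of 50159 in liver, 18 of 40531 in mouse embryonic fibroblasts (MEFs) and 2 of 14369 in Hep3B cells. The locus was chosen by the strength of these same peaks, since it holds some of the highest values of both mouse lists. Its peak numbers and ranks are therefore a description and carry no test. The human window is shorter than the mouse one: it leaves out USP40, DGKD and the starts of UGT1A8 and UGT1A10, so counts of the 2 species do not cover the same genes.

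In CUT&RUN, a nuclease is tethered by an antibody to sites occupied by a protein, and the fragments it frees are sequenced. Nuclei of homogenized liver, labelled as hepatocyte nuclei but with no sort described, came from wild-type C57BL/6J mice of 2 to 3 months and report endogenous PROX1, with 5 anti-PROX1 and 5 IgG samples. MEFs came from wild-type C57BL/6N embryos and carried lentiviral rtTA and a doxycycline-responsive, FLAG-tagged mouse Prox1, induced with 2 µg/ml doxycycline for 2 days, with 3 anti-FLAG and 3 IgG samples. The paper describes this transduction within its protocol for reprogramming MEFs to hepatocytes. It does not state outright whether the liver factors of that protocol were also delivered to these MEFs. Its methods list the peak sets with a motif under liver, Hep3B and induced hepatocytes, whereas its supplement names MEFs. Hep3B, an established human hepatocellular carcinoma line, was transduced with doxycycline-inducible PROX1, selected with puromycin and induced at the same dose and time, again with 3 anti-FLAG and 3 IgG samples. Each list pools the antibody samples of 1 group, so the depth per sample is unknown, no replicate spread exists for any value, and IgG lists were not used here. Between liver and the cultures the tissue, the antibody and the source of PROX1 all differ, and these cannot be told apart. The strength of a peak is given as the −log10 p of its summit, which the authors' peak caller assigned and which ranks peaks only within a list.

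PROX1 is a homeodomain transcription factor of hepatocytes and lymphatic endothelium that can act as a repressor. The Ugt1a complex encodes UDP-glucuronosyltransferases, enzymes that join glucuronic acid to bilirubin, hormones and drugs. Each Ugt1a gene has a first exon and promoter of its own and shares the remaining exons with its neighbours. Ugt1a1 encodes the enzyme that conjugates bilirubin for excretion into bile. Hjurp encodes the chaperone that deposits the histone variant CENP-A at centromeres of dividing cells, and Trpm8 encodes the ion channel of sensory neurons that responds to cold and menthol.

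The sequences at the strongest summits are shown because the locus stands out through them. Each of the first group is the 101 bp around a summit, given on the plus strand of mm10 (RefSeq), with any match to the searched motifs in capitals. The liver peak in a Trpm8 intron is chr1:88288270-88288370, that in Ugt1a1 is chr1:88213765-88213865 and that between Usp40 and the Ugt1a complex is chr1:88013799-88013899. The MEF peak between Mroh2a and Hjurp is chr1:88262409-88262509. The capitals mark a PROX1 consensus match with 2 mismatches in the Ugt1a1 peak and CAAAGT on the minus strand in the Usp40 to Ugt1a peak.
liver Trpm8 intron: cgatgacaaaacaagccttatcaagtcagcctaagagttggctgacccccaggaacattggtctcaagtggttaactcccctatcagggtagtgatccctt
liver Ugt1a1 intron: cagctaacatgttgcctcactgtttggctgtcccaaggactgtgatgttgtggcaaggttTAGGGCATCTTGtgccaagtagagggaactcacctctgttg
liver Usp40 to Ugt1a: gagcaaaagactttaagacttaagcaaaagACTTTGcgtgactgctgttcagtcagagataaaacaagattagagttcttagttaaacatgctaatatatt
MEF Mroh2a to Hjurp: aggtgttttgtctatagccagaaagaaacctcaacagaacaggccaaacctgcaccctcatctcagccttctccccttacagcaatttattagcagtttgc

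Promoters are shown from 100 bp before the annotated start of the gene, 150 bp in all and on the strand of the gene, because the summits of all 3 lists met at Hjurp and because Ugt1a1 is the best known gene of the locus. Mouse Hjurp is chr1:88277584-88277733 on the minus strand (mm10) and human HJURP is chr2:233854517-233854666 on the minus strand (hg38). In both, capitals mark the summits, which for the mouse are the 4 bases from the liver to the MEF summit and for the human is the single base of the Hep3B summit. Mouse Ugt1a1 is chr1:88211859-88212008 on the plus strand (mm10), and its liver summit lay 26 bp before the start.
Hjurp: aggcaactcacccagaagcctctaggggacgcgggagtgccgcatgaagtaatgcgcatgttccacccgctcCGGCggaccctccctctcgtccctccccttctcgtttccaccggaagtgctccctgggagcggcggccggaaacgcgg
HJURP: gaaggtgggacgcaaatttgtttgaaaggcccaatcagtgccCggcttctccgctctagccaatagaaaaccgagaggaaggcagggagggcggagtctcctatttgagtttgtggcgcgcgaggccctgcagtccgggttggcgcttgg
Ugt1a1: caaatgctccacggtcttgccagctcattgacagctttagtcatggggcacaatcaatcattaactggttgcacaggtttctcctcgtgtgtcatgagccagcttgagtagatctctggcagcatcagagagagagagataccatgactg

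The liver peaks crowded over the Ugt1a complex, whereas the MEF peaks gathered around Hjurp. In liver the locus held 12.0 peaks per 100 kb, against 1.84 over the whole list, and the peaks covered 48.5 kb (8.82% of the window, against 1.22% of the chromosomes). In MEFs it held 3.27 peaks per 100 kb against 1.49, and the peaks covered 15.7 kb (2.86% against 1.15%). In Hep3B it held 0.435 against 0.465 and the peaks covered 0.809 kb. Among all windows of equal length taken every 50 kb, 99.6% held fewer liver peaks than the locus, 86.5% fewer MEF peaks and 59.4% fewer Hep3B peaks. These percentages include windows without any peak. Windows with at least 1 peak had a median of 10.0 peaks for the liver list, 8.00 for the MEF list and 3.00 for the Hep3B list, so the 66 liver and 18 MEF peaks lay above it and the 2 Hep3B peaks below it.

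**Figure D1:**
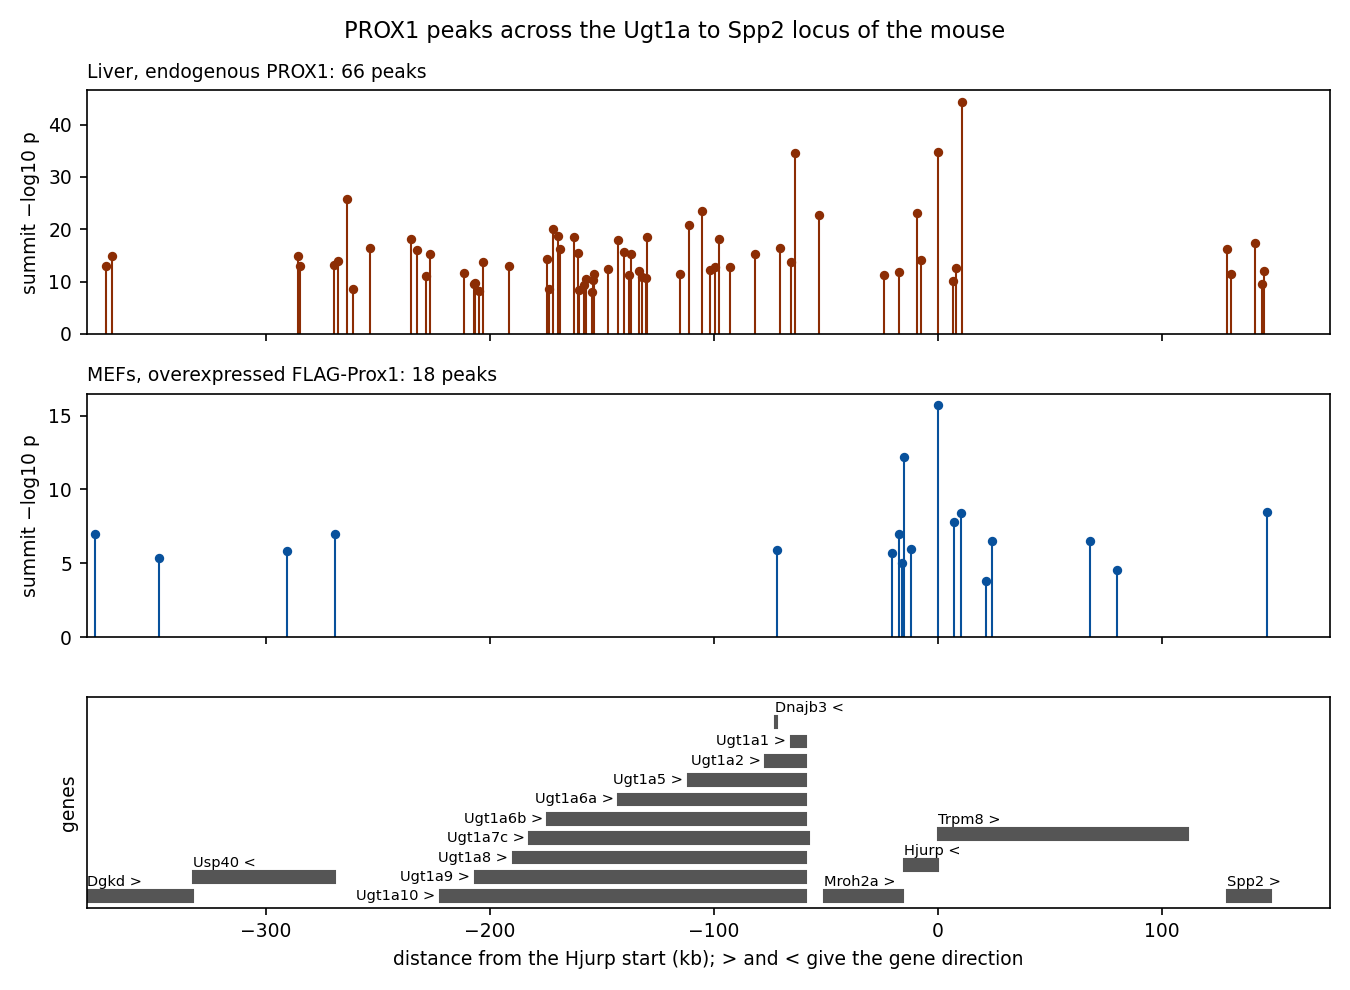
Summit −log10 p of each peak (vertical axis, own scale in each panel) against the distance of the summit from the Hjurp start in kb, for the 66 liver and 18 MEF peaks, with the annotated genes below (> and < give the direction). The liver list has 39 peaks over the Ugt1a complex and the MEF list has 1, while both have a strong peak at 0 kb, the Hjurp start.

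Of the liver peaks of the locus, 4 belonged to the top 1% of their list, with ranks 2, 4, 6 and 149. The strongest, chr1:88287311-88288613, had a summit −log10 p of 44.3 and lay in an intron of Trpm8. The rank 4 peak, chr1:88277234-88280425, had 34.7 and lay over the Hjurp start, and the rank 6 peak, chr1:88212573-88214234, had 34.6 and lay in Ugt1a1. The peak of rank 149, chr1:88013361-88016177, had 25.8 and lay between Usp40 and the first Ugt1a gene. In MEFs 2 peaks belonged to the top 1%, and both flanked Hjurp. Rank 1 was chr1:88275771-88278616 at its start (15.7), and rank 5 was chr1:88261957-88263677 at its end (12.2). The 2 Hep3B peaks ranked 2268 and 10258. The remaining peaks were spread over their lists, from 8.04 upward in liver (median over the locus 13.4, over the list 12.2), and 26 of 66 liver peaks (39.4%) lay in the strongest 25% of the list.

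**Figure D2:**
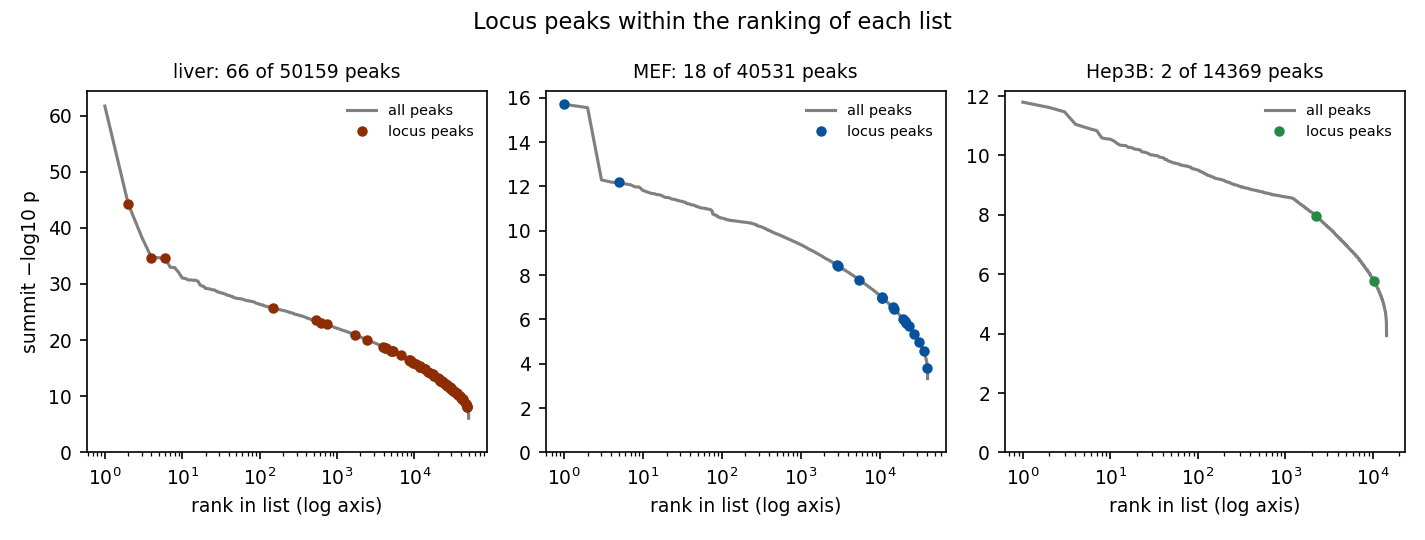
Summit −log10 p against rank in the list (log axis) for all peaks of each list (grey line) and for the peaks of the locus (coloured points). Liver points sit at ranks 2, 4, 6 and 149 and then along the whole curve, MEF points at ranks 1 and 5 and then from rank 2902 onward, and Hep3B points at ranks 2268 and 10258.

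From one end of the mouse window to the other, liver and MEF peaks differed most over the Ugt1a complex and the stretch before it. The 46.8 kb from Usp40 to the first Ugt1a start held 8 liver peaks and 0 MEF peaks. The Ugt1a complex, 165 kb, held 39 liver peaks with values from 8.04 to 34.6 (median 12.8) and 1 MEF peak with 5.91. That MEF peak did not lie at a Ugt1a start but 3 bp from the start of Dnajb3, a gene for a DnaJ-type co-chaperone that sits on the opposite strand inside the complex. The longest stretch of the window without a MEF summit was 197 kb, from chr1:88008411 at Usp40 to chr1:88205785 at Dnajb3. Downstream of the complex there were 14 liver and 13 MEF peaks. These counts do not rest on a like floor. At a minimum area under the caller's significance curve of 500, the whole window kept 66 liver but 8 MEF peaks. Mroh2a held 2 liver and 3 MEF peaks, the body of Hjurp 2 and 1, and the 25.6 kb between the Hjurp start and the first coding start of Trpm8 held 4 and 5. From the Spp2 start to the end of the window there were 4 liver peaks and 1 MEF peak. From that first coding start of Trpm8 to its end, liver had 0 peaks and MEFs had 2 (6.49 and 4.56). The areas of these MEF peaks, 391.3 and 364.8, lay below the smallest area of any liver peak of the locus, 503.9. The longest stretch without a liver summit, 119 kb, spanned this part of Trpm8, from chr1:88288320 to chr1:88406895 at the start of Spp2, a gene for a secreted phosphoprotein.

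At the edges of the window, the last liver summit inside lay at chr1:87906479 (13.0) and at chr1:88423220 (12.1), and the next ones outside lay at chr1:87897142 (19.9) and chr1:88491623 (10.7). For MEFs the summits inside lay at chr1:87901173 (rank 10649) and chr1:88424795 (8.44), and those outside at chr1:87855105 (4.47) and chr1:88474676 (6.81). For Hep3B those outside lay at chr2:233566743 (7.98) and chr2:234951892 (4.68), far from the window.

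Of the 9 Ugt1a genes, 5 had a liver summit within 1000 bp of their outermost start and 0 had a MEF summit there. Over all protein-coding genes, 26.7% had a liver summit and 55.4% a MEF summit within 1000 bp of a coding start. That measure takes any coding start of a gene, not the outermost one, and by it Ugt1a7c joined the 5 in liver. Ugt1a1 (ENSMUSG00000089960.1) had one 26 bp upstream of its start with a −log10 p of 13.7 (rank 17818). Ugt1a6b had one 14 bp downstream (14.4) and Ugt1a9 one 62 bp upstream (9.45). Ugt1a6a had one 92 bp upstream (18.0) and Ugt1a5 one 434 bp downstream (20.9, rank 1710), the highest of the 5. The other genes of the complex lay farther from liver summits, with 1472 bp for Ugt1a8, 4381 bp for Ugt1a10, 4696 bp for Ugt1a2 and 8204 bp for the first start of Ugt1a7c. One annotated coding start of Ugt1a7c coincides with that of Ugt1a6b, so the same summit also marked Ugt1a7c. From Ugt1a starts to MEF summits the distance ran from 5184 to 94841 bp. The MEF summits nearest to them were those at Dnajb3 and Usp40.

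**Figure D3:**
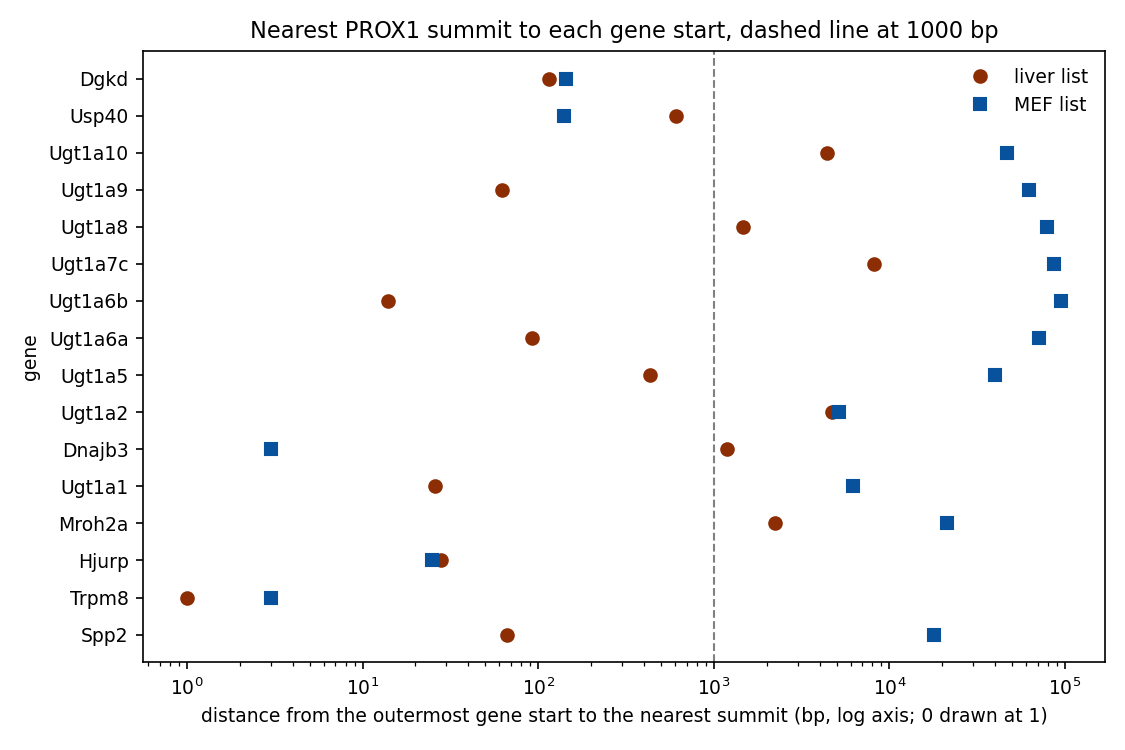
Distance in bp (log axis, 0 drawn at 1) from the outermost annotated start of each of the 16 protein-coding genes of the mouse window to the nearest summit of the liver list (circles) and of the MEF list (squares), with a dashed line at 1000 bp. All 9 Ugt1a genes have their MEF square beyond the line, and 5 of them have their liver circle before it.

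The strongest peak of the complex was not at a start. The rank 6 summit, chr1:88213815, lay 1856 bp downstream of the Ugt1a1 start, in the first intron of Ugt1a1. This intron begins with the end of exon 1, 944 bp before the summit, and ends at exon 2, 1229 bp after it. Exon 2 and the exons after it begin at the same base in all 9 Ugt1a genes, so the summit also lies in an intron of each of the others. Ugt1a1 thus had a moderate peak at its start and one of the strongest of the list inside it. Another strong peak, chr1:88170768-88172524 (23.5, rank 535), lay 6227 bp from the Ugt1a5 start.

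First exons of the Ugt1a genes arose by duplication and share sequence, and the locus also holds repeats found elsewhere in the genome, both of which bear on how reads could be placed. Of the 32-base words of the mouse window, 15.6% occurred more than once in the genome and 9.11% more than once in the window itself. Among the 39 liver peaks of the Ugt1a complex, 14 had more than 50% of such repeated words and 9 had none (median 33.5%). In 9 of the 39, more than 50% of the words were repeated within the window itself, and in 4 of the 14 no word was, so their repeats lay elsewhere in the genome. The strongest peaks differed in this, with 0% repeated words in the Ugt1a1 peaks at the start and in the intron and in the Hjurp peaks of both lists, 0.236% in the Trpm8 intron peak of liver and 18.8% in the rank 149 peak. The share was 5.89% at the Ugt1a5 start, 13% at Ugt1a6a and 43% at Ugt1a6b. How reads were placed between copies there was not tested. In the rank 535 peak 51% of the words were repeated in the genome and 11.1% in the window. The part of repeated sequence in the number of liver peaks was not tested. Of the 18 MEF peaks, 16 held no repeated word and the highest share was 0.842%.

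Mroh2a (ENSMUSG00000079429.9, chr1:88226986-88262289), which lies between Ugt1a1 and Hjurp, had no summit of either list at its main start. The nearest liver summit lay 2233 bp upstream of it, in a peak of rank 746 (chr1:88224330-88225272, 22.8) of which 41.4% of the words were repeated. The nearest MEF summit to this start lay 21.2 kb upstream, at Dnajb3. A weak MEF peak (5.69, rank 23359) lay 392 bp from a further coding start inside the gene, at chr1:88257758, through which alone Mroh2a counted as having a promoter peak in MEFs. Near its 3′ end, a liver peak (11.9) and a MEF peak (6.99) overlapped with summits 29 bp apart.

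The MEF peak of rank 5 had its summit at chr1:88262459, in the 0.181 kb between the 3′ ends of Mroh2a and Hjurp, which are transcribed towards each other. No liver peak overlapped it. The nearest MEF peaks on either side had values of 4.99 and 6.00, so it stood above its neighbours.

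Hjurp (ENSMUSG00000044783.16, chr1:88262471-88277633, minus strand) was the only gene lying in both the mouse and the human window with a promoter peak in liver, MEFs and Hep3B. Usp40, whose human counterpart lies outside the human window, also had a promoter peak in all 3 lists, in Hep3B with a summit 9 bp from a coding start and a −log10 p of 7.98. At Hjurp, the liver summit lay 28 bp and the MEF summit 25 bp upstream of the start. These summits were 3 bp apart, in the sequence shown in capitals above. Peaks of 3192 bp in liver and 2846 bp in MEFs, the widest of the locus in each list, overlapped by 1383 bp. In Hep3B the HJURP peak, chr2:233854508-233855034, had a summit 58 bp upstream of the start with a −log10 p of 7.95. The Hjurp promoter sequence had a GC content of 66.7% and 15 CpG dinucleotides, and that of HJURP had 58.7% and 10. In the human sequence CCAAT, the core of NF-Y sites, occurred at positions 31 to 35 and 60 to 64 and TTTGAA, the core of the cell cycle element CHR, at positions 21 to 26. In the mouse 150 bp neither was found, although the RefSeq promoter of Hjurp, 300 bp long, held both. Among 32851 RefSeq mouse promoters (GRCm38.p6), 37.4% held CCAAT and 17.9% held TTTGAA on either strand. Of 15 promoters of the mouse window, 5 held CCAAT and 7 held TTTGAA. Those of Ugt1a6a and Trpm8 held both, as did that of Hjurp. Inside Hjurp, liver had further peaks of 23.1 (rank 623) and 14.2, and MEFs had 1 of 6.00 in a coding exon.

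Trpm8 (ENSMUSG00000036251.16, chr1:88277661-88389293) is annotated to begin at the liver summit of the Hjurp promoter, but this start belongs to a processed transcript that encodes no protein. Its coding transcripts begin at chr1:88303283 and downstream. The first of these lay 14963 bp from the nearest liver summit and 1472 bp from the nearest MEF summit (6.54), so Trpm8 had no promoter peak in either list when only coding starts were used. The strongest liver peak of the locus lay between the noncoding and the coding starts, 10659 bp from the noncoding one. A MEF peak of rank 2964 (8.42) lay within it, with a summit 539 bp from that of liver. In Hep3B the nearest summit to a coding start of TRPM8 lay 62749 bp away, at HJURP.

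**Figure D4:**
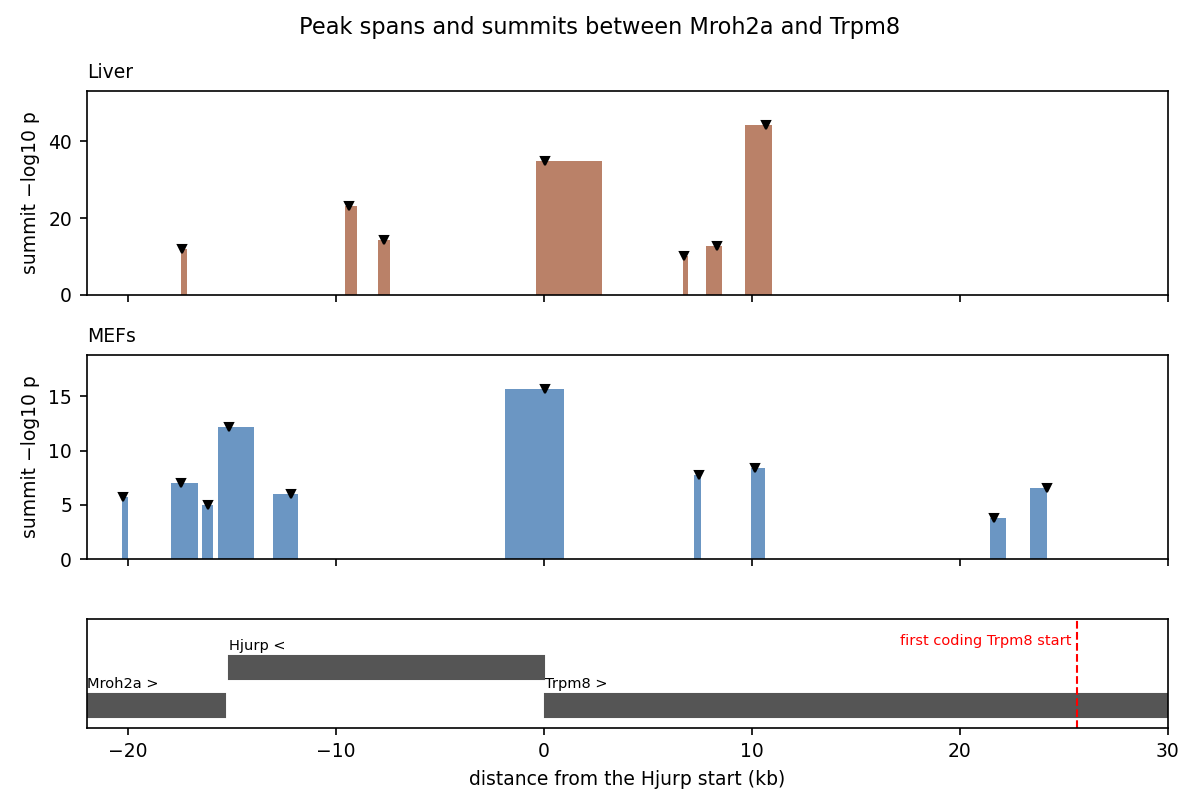
Peak spans (bars, with height equal to the summit −log10 p on a separate scale for each list) and summits (triangles) against the distance from the Hjurp start in kb, with the genes below and the first coding start of Trpm8 as a dashed line. Both lists have a broad peak at 0 kb, the liver list has its highest bar near 11 kb, and the MEF list has its second highest bar at the end of Hjurp.

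Counted over genes, 10 of the 16 protein-coding genes of the mouse window had a liver summit within 1000 bp of a coding transcription start site (TSS), against 26.7% of all protein-coding genes. These were Dgkd, Usp40, Ugt1a9, Ugt1a7c, Ugt1a6b, Ugt1a6a, Ugt1a5, Ugt1a1, Hjurp and Spp2. In MEFs there were 5 of 16, against 55.4% of all genes, namely Dgkd, Usp40, Dnajb3, Mroh2a and Hjurp. In Hep3B it was HJURP alone, 1 of the 13 genes of the shorter human window, against 44.5%. The Dgkd start lies outside the window, and Dgkd (a diacylglycerol kinase) and Usp40 (a deubiquitinase) had a peak in both mouse lists. The liver summit at Usp40 lay 595 bp from its coding start and the MEF summit 123 bp. In Hep3B the second peak of the window, chr2:233711370-233711651 (5.77), lay 1322 bp upstream of UGT1A5 and 48685 bp from UGT1A1.

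With all annotated TSSs, noncoding ones included, 16 of 66 liver peaks (24.2%) were promoter peaks, against 20.4% of the list. In MEFs there were 4 of 18 (22.2%), against 37.8%, and in Hep3B 1 of 2, against 66.3%. By annotation, 50 of the liver summits lay in introns (75.8%, against 56.5% of the list), 10 between genes, 2 in coding exons and 4 in other exons. Introns of the long Ugt1a genes overlie each other, so 1 summit can lie in introns of several genes. Median GC content was 44.9% in liver peaks of the locus (47.0% over the list) and 50.4% in MEF peaks (51.2%).

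Positions common to both mouse lists were a smaller share of the liver peaks than over the list, but not of the MEF peaks. Of the liver peaks 4 (6.06%) overlapped a MEF peak by at least 1 bp, against 18.9% of the list, and 4 of 18 MEF peaks (22.2%) overlapped a liver peak, against 21.4%. They lay at Usp40, at the Mroh2a 3′ end, at Hjurp and in the Trpm8 intron. The summits were 472, 29, 3 and 539 bp apart, so only those at Mroh2a and Hjurp nearly coincided. None of the 39 liver peaks over the Ugt1a complex overlapped a MEF peak. Of the liver promoter peaks in the locus 2 of 16 (12.5%) were shared, against 53.8% of liver promoter peaks over the list. Of the MEF promoter peaks in the locus 2 of 4 (50.0%) were shared, against 33.6% over the list.

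Motifs were counted as letters in the sequence. The PROX1 consensus, searched on both strands over each peak and 20 bp beyond its ends with 2 mismatches allowed, occurred in 10 of 66 liver peaks (15.2%, against 14.1% of the list), in 3 of 18 MEF peaks (16.7%, against 15.3%) and in 0 of 2 Hep3B peaks (against 13.3%). These shares were close to those of the lists. No match had fewer than 2 mismatches, and 3 of the 11 liver matches lay within 50 bp of a summit. They are shown because they are the nearest to a summit, 12 bp in the peak at Ugt1a9, 16 bp in the rank 6 peak of Ugt1a1 and 27 bp in the rank 535 peak near Ugt1a5, with capitals for the bases that match the consensus.
Ugt1a9: TAAGGtaTCTTG
Ugt1a1: TAgGGCaTCTTG
Ugt1a5: CcAGGCaTCTTG

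At the Hjurp promoter 1 match, chr1:88277736-88277747, lay in both the liver and the MEF peak, 81 and 84 bp from their summits. Exact matches on either strand within 50 bp of the summit were counted for AGGTCA (nuclear receptor half-site), CAAAGT (part of HNF4A sites), ATCGAT (ONECUT core) and CCACTAG (part of CTCF sites), none of which contains another. In liver, AGGTCA occurred at 11 summits (16.7%, against 16.5% of the list) and CAAAGT at 8 (12.1%, against 12.9%). No liver summit held ATCGAT (1.09% of the list) or CCACTAG (1.23%). In MEFs, 1 summit (5.56%) held AGGTCA, against 6.00% of the list, and 1 held CCACTAG, against 4.06%. No MEF summit held CAAAGT (4.32% of the list) or ATCGAT (0.323%). With so few MEF peaks, these counts say little. RefSeq promoters of 15 of the 16 mouse genes were found, and 3 of them, those of Ugt1a9, Ugt1a7c and Spp2, held AGGTCA, against 16.3% of all promoters. CAAAGT was held by 3, those of Usp40, Ugt1a10 and Mroh2a, against 14.4%.

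Genes that act with the members elsewhere in the genome were counted in the same way. Over all protein-coding genes the shares with a promoter peak were 26.7% in liver, 55.4% in MEFs and 44.5% in Hep3B. Other genes of the UDP-glycosyltransferase (UGT) superfamily had a promoter peak in liver in 8 of 13 cases, in MEFs in 0 of 13 and in Hep3B in 2 of 13. Of these, Ugt3a1, Ugt3a2 and Ugt8a encode enzymes that transfer other sugars than glucuronic acid, and without them the counts were 6 of 10, 0 of 10 and 2 of 10. The highest liver values were those of Ugt3a2 (19.3), Ugt3a1 (17.4), Ugt2b5 (17.1) and Ugt2b1 (16.9), while Ugt2a1, Ugt2a2, Ugt2b37 and Ugt2b38 had none.

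Genes of bilirubin formation, uptake, conjugation and export had a liver promoter peak in 10 of 12 cases, against 26.7% of all genes. In MEFs it was 8 of 12, against 55.4%, and in Hep3B 6 of 13, against 44.5%. The Hep3B count was thus near the share of all genes. Slco1b2, an uptake transporter, had 16.7, and Abcc2, the canalicular exporter of conjugated bilirubin, had 16.3, and neither had a promoter peak in MEFs. The glutathione transferase genes Gstm1 (18.1) and Gsta3 (14.4) completed the highest values. In MEFs Gstm1 had a promoter peak (8.65) and Gsta3 had none. Blvra, a biliverdin reductase, and Slc35d1, a transporter of UDP-glucuronic acid, had no liver promoter peak, although the nearest summit to Slc35d1 lay 1175 bp away with 24.6. Both Blvra (8.71) and Slc35d1 (6.80) had a promoter peak in MEFs.

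Transcription factors known to control UGT1A1 had a liver promoter peak in 11 of 11 cases, against 26.7% of all genes. In MEFs it was 8 of 11, against 55.4%, and in Hep3B 6 of 11, against 44.5%. Within 500 bp the counts were 7, 6 and 6 of 11, so the liver count rests in part on summits between 500 and 1000 bp from a start. The highest liver values were those of Nfe2l2 (21.4), Nr1i3, which encodes the nuclear receptor CAR (18.5), Foxa2 (17.7) and Rxra (17.5). Of these 4, Nr1i3 had none in MEFs.

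For CENP-A loading, in which HJURP takes part, 3 of 10 genes had a promoter peak in liver, close to the 26.7% of all genes. In MEFs it was 9 of 10, against 55.4%, and in Hep3B 10 of 10, against 44.5%. The 3 in liver were Cenpa (9.33), Mis18a (7.90) and Cenpc1 (7.11), all below the median of the liver list, 12.2. In contrast, Cenpi, Cenpk, Cenpn and Npm1 had none in liver. Other TRPM channel genes had a promoter peak in 2 of 7 cases in liver, Trpm1 (14.0) and Trpm7 (12.0), in 3 of 7 in MEFs and in 1 of 7 in Hep3B, while Trpm2, Trpm3, Trpm4 and Trpm5 had none in liver. Each count stands beside 26.7% of all genes in liver, 55.4% in MEFs and 44.5% in Hep3B.

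**Figure D5:**
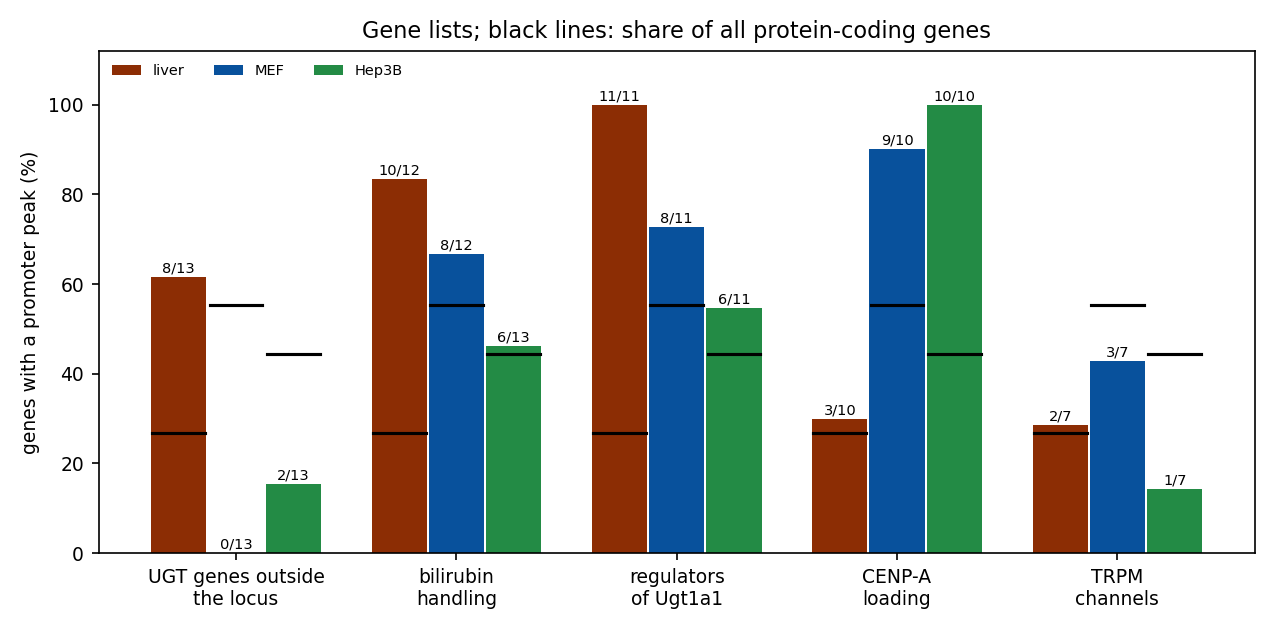
Share of the genes of each list with a promoter peak (%) in liver, MEFs and Hep3B, with the counts above the bars and black lines at the share of all protein-coding genes (26.7, 55.4 and 44.5%). Liver bars are highest for the other UGT genes (8 of 13), bilirubin handling (10 of 12) and Ugt1a1 regulators (11 of 11), and MEF and Hep3B bars for CENP-A loading (9 of 10 and 10 of 10).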

How the data were processed

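Of 22 samples in 6 groups, the deposited lists for liver, MEFs and Hep3B pool the anti-PROX1 or anti-FLAG samples of 1 group each. Per the methods and the submitters' processing notes, the authors trimmed reads with Trim Galore 0.6.6, aligned them with Bowtie2 2.4.2 to mm10 or hg38 in the nf-core/cutandrun pipeline and called peaks with Genrich 0.6.1 over the replicates, dropping reads of low mapping quality. The study describes its sites as found in comparison with IgG, but the calling command it gives names no control. The deposited score, capped by the authors' caller, was not used. The deposited signal is a peak's area in the caller's significance track, with a higher floor in liver than in the other lists. The authors' −log10 p and −log10 q describe the summit, and its deposited offset gave the position. No value was normalized between lists.

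Members and gene lists were chosen with earlier results of these data known. Genes named were the 4 members, every other protein-coding gene of the window, peaks of the top 1% and those nearest to the members' starts, and per gene list up to 4 members with a liver promoter peak by the highest −log10 p and up to 4 without, alphabetically. TSSs came from GENCODE M21 and 44. A summit within 1000 bp of a TSS made a promoter peak. Further peaks and the repeated-word shares of named peaks were singled out after their values were seen. Python 3.11.15, pandas 2.3.3 and pysam 0.24.0 were used, and scripts were tested on simulated data. The promoter of Ugt1a6b was not matched in the RefSeq table. A motif and 1 gene in each of 2 gene lists are not reported here.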

Additional observations from a re-analysis of the deposited data

How the results depend on the processing

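No paired analysis was possible because the authors pooled the replicates of a group into 1 list, and for the same reason no replicate could be left out. Of 106 alternative values, 80 stayed within 1.5 times the main count. Among values for the main results 39 stayed and 18 moved, and among the others 41 stayed and 8 moved. Some settings could not move a count. All 66 liver peaks met both q limits (0.05 and 0.01), a length of 50 bp and an area of 500. With a promoter window of 500 bp the liver list had 10 promoter peaks in the locus and with 2000 bp 29 (16 at 1000 bp), and at 2000 bp Hep3B had 2 promoter peaks and 2 genes in place of 1. With 1 mismatch, 0 liver and 0 MEF peaks held the PROX1 consensus, and with 3 mismatches 37 and 14 did. Ranked by area, 2 liver peaks and 1 MEF peak were in the top 1% (4 and 2 by −log10 p). A minimum area of 500 left 8 MEF peaks covering 10.4 kb, and 0 Hep3B peaks covering 0 kb. Requiring 50% of the shorter peak, or summits within 100 bp, left 2 shared peaks in each mouse list in place of 4. Among other counts, AGGTCA lay at 4 liver summits within 25 bp and 18 within 100 bp (11 within 50 bp), CAAAGT at 4 within 25 bp (8), and 7 regulators of Ugt1a1 had a liver peak within 500 bp (11). Counting only Ugt2 genes was chosen after seeing the data. The depth of the samples is unknown, so the absence of a peak is not evidence that PROX1 is absent, and repeated sequence can hide peaks.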
